A study of Mus musculus with 4 samples.

Results

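Oligodendrocyte progenitor cells (OPCs) are the dividing glial cells of the brain that give rise to myelinating oligodendrocytes, and they carry receptors, adhesion molecules and extracellular proteins through which they sense neurons and receive synapses. The genes described here are 7 such OPC marker genes, picked by symbol among the 32285 genes of the files: Cspg4, Matn4, Neu4, C1ql1, Cacng4, Lhfpl3 and Pcdh15. Cspg4 encodes the NG2 proteoglycan, a classical OPC surface marker that pericytes also carry, and Matn4 encodes matrilin 4, an adaptor protein of the extracellular matrix. Neu4 encodes a sialidase, an enzyme that removes sialic acid from glycans. C1ql1 encodes a secreted C1q-related protein that binds the adhesion receptor Adgrb3 at synapses, and Cacng4 encodes an auxiliary subunit of AMPA-type glutamate receptors. Lhfpl3 encodes a membrane protein of the LHFPL family, and Pcdh15 encodes protocadherin 15, best known as part of the tip link of hair cells. By RefSeq on GRCm38.p6, Cspg4 lies at chr9:56865104-56899870, Neu4 at chr1:94020493-94028334, Matn4 at chr2:164389393-164405160, C1ql1 at chr11:102939264-102946716, Cacng4 at chr11:107732357-107794706, Lhfpl3 at chr5:22746054-23275597 and Pcdh15 at chr10:73096277-74649831. All 7 had UMIs (unique molecular identifiers, each standing for 1 captured transcript) in every section.

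The samples were 4 sections of fresh frozen mouse brain, placed on Visium slides, where barcoded spots take up mRNA from the few cells that lie on them. All 4 sections carried the genotype Nf1+/-, heterozygous for the gene of neurofibromin, a negative regulator of RAS, and there was no other group. Age, treatment and the number of mice behind the sections are not in the labels, so each n here is a number of sections. Wild-type brain was not analysed here. The study set out to compare regions of high OPC density with the surrounding tissue, and since the outlines of those regions were not used here, spots were grouped by their own UMIs.

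The 1537, 2358, 2294 and 1431 spots with at least 500 UMIs in sections 1 to 4 held 19261103 to 37001945 UMIs per section, with medians of 8862.5 to 15296.5 per spot, section 3 being the shallowest. Section pairs shared 427 to 1989 barcodes, which on Visium slides name positions of the array rather than cells, and their summed counts differed far more than sampling alone gives (chi-square over its degrees of freedom, 11.2 to 41.8). Markers of choroid plexus epithelium (at least 3 of 10) were present in 189 and 76 spots of sections 1 and 4 but in 4 and 7 spots of sections 2 and 3. In a spot, fewer cells of a type and less RNA per cell cannot be told apart.

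The members were sparse. Over the 4 sections they gave between 561 UMIs (Pcdh15) and 2629 UMIs (Cacng4), and the mean share of spots with at least 1 UMI ran from 6.91% ± 1.69 (Pcdh15) to 26.3% ± 6.33 (Cacng4; SD, n = 4 sections). After thinning each spot of at least 5000 UMIs to 5000, these means were 2.60% and 11.4%. Since 1 UMI can come from free RNA or a neighbouring cell, shares were also taken in the spots with choroid plexus markers. In section 1, Cspg4 was found in 12.2% of the 189 choroid plexus-marker spots (median depth 15886 UMIs) and in 10.9% of the 617 spots with none of those markers (13290 UMIs), and Pcdh15 in 10.6% and 8.27%. The shares in spots with and without the markers had overlapping exact binomial 95% intervals for all 7 members in section 1. Pdgfra, whose protein the study stained to see OPCs, was found in 40.7% against 27.7% there. The choroid plexus-marker spots thus need not lack cells with such genes. In section 4, where the choroid plexus-marker spots were shallower (6566 against 12420 UMIs), Lhfpl3 was found in 9.21% against 20.2% and C1ql1 in 18.4% against 18.2%. These shares cannot tell where a single UMI came from. A spot with a UMI of a member was not read as a spot with an OPC, and what follows rests on summed UMIs.

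Levels are given as UMIs per 1000000 UMIs of the section (CPM), a unit that compares a gene between sections but not genes with each other, since capture at the 3′ end differs between transcripts. Cspg4 stood at 9.84, 9.46, 9.13 and 11.6 CPM in sections 1 to 4, a mean of 10.0 ± 1.11 (SD, n = 4). The sections lay close together, with section 4 highest. Neu4 showed the same section as highest, at 8.95, 8.78, 8.54 and 11.6 CPM, and so did Matn4, at 7.03, 6.73, 8.77 and 10.4 CPM. Pcdh15, the member with the lowest level, stood at 5.92, 5.54, 4.86 and 5.71 CPM, a mean of 5.51 ± 0.46. Cacng4 stood at 25.8, 27.5, 22.5 and 26.4 CPM, a mean of 25.6 ± 2.15.

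C1ql1 and Lhfpl3 had a different order of sections. Lhfpl3 reached 27.9 CPM in section 1 against 17.4, 18.6 and 20.3 CPM in sections 2 to 4, and the exact Poisson 95% interval of section 1 (25.8 to 30.1) did not reach those of the others. C1ql1 stood at 19.4 CPM in section 1 and at 13.8, 14.3 and 16.9 CPM in sections 2 to 4. For C1ql1, 2 spots of section 1 held 21 and 17 UMIs, whereas no other spot of that section held more than 7, and without them the section fell to 17.8 CPM. The spot with 17 C1ql1 UMIs also held 63 UMIs of Sst and 37 of Npy, neuropeptides of inhibitory interneurons, where its depth predicted 10.2 and 6.52, and 13 UMIs of Cort where 0.42 was predicted. The spot with 21 C1ql1 UMIs held 102 UMIs of Mbp, which encodes a major myelin protein, where 29.8 were predicted. It also held 20 UMIs of Npy where 4.91 were predicted, and 16 of Scg2 where 3.23 were. These intervals cover counting error only, and with 1 group of sections no test between sections was made.

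**Figure D1:**
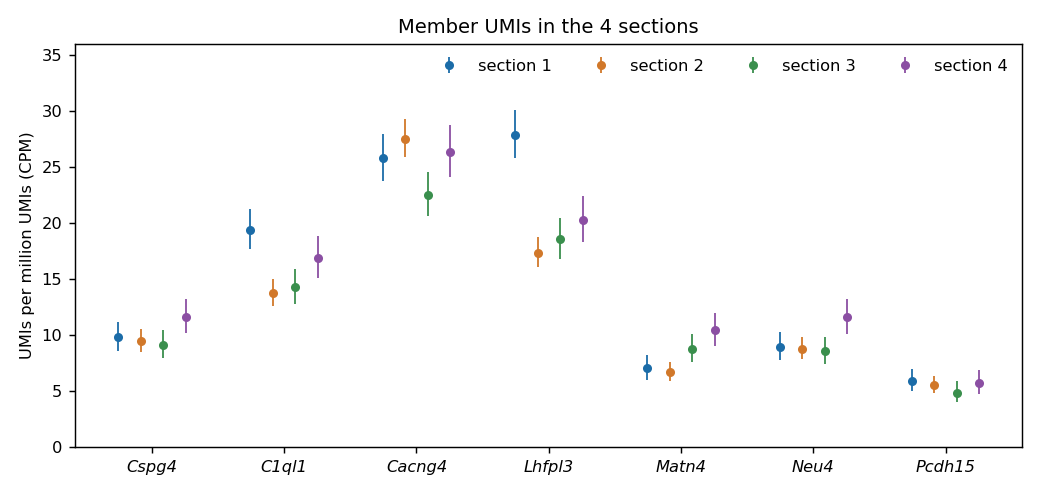
UMIs per 1000000 UMIs (CPM) of each of the 7 members in sections 1 to 4, with bars showing exact Poisson 95% intervals for counting error. Lhfpl3 in section 1 stands at 27.9 CPM, above its 17.4 to 20.3 CPM in the other sections, while Pcdh15 lies between 4.86 and 5.92 CPM.

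How far each marker went with the rest was asked by holding it out. For each member, the 10% of spots per section with the largest excess of UMIs of the other 6 members over the number predicted from total UMIs were set against all other spots. Of the 7 held-out members, 5 were higher in these spots: Cspg4, Neu4, Matn4, C1ql1 and Lhfpl3, by 1.58- to 2.62-fold and in 4 of 4 sections each. Cacng4 and Pcdh15 did not pass the test. Tests were made with edgeR's quasi-likelihood method on UMIs summed per section and spot group, with a block for section and p-values adjusted by Benjamini-Hochberg across every gene tested, and errors on the log2 scale are standard errors (SE). The share of all tested genes called higher was 1.72% in the comparison for Cspg4, 1.98% for C1ql1, 2.33% for Cacng4, 3.05% for Lhfpl3, 1.56% for Matn4, 1.49% for Neu4 and 1.76% for Pcdh15, and these shares include the 6 genes that chose the spots. The 7 comparisons use the same sections and largely the same markers, so they are not independent of each other. Since UMIs were summed without weights, Cacng4 and Lhfpl3 counted most in the scores where not held out. They gave 26.8% and 21.8% of the members' UMIs (means of 4 sections).

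Cspg4 had the largest difference. In sections 1 to 4 it stood at 26.2, 18.6, 24.0 and 23.7 CPM in the spots high in the other 6 members against 8.17, 8.57, 7.68 and 10.4 CPM in the other spots. These levels come from summed UMIs, and overlap here means overlap of the 4 section levels, not of single spots. No section's level in the high spots fell within the range of the other spots' levels. The log2 fold change was 1.39 ± 0.14 (edgeR, adjusted p = 5.93e-07). Neu4 stood at 20.4, 14.6, 21.0 and 28.2 CPM against 7.73, 8.21, 7.33 and 9.89 CPM, a log2 fold change of 1.29 ± 0.14 (edgeR, adjusted p = 4.14e-07). For Neu4 too the section levels of the high and other spots did not overlap, with section 2 showing the smallest gap.

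For Matn4 the values were 15.7, 12.04, 17.4 and 20.8 CPM in the high spots and 6.15, 6.22, 7.90 and 9.41 CPM in the others (log2 fold change 1.14 ± 0.15, edgeR, adjusted p = 4.38e-05). For C1ql1 they were 30.8, 23.1, 28.2 and 37.8 CPM against 18.1, 12.9, 12.9 and 14.7 CPM (log2 fold change 1.00 ± 0.12, edgeR, adjusted p = 1.07e-06). For both genes the section levels of the spot groups did not overlap, and leaving out the 2 spots rich in C1ql1 kept its call. Lhfpl3 rose less: 42.7, 27.0, 24.8 and 31.5 CPM against 26.4, 16.4, 18.0 and 19.2 CPM, a log2 fold change of 0.66 ± 0.10 (edgeR, adjusted p = 5.49e-06). Its level in the high spots of section 3 lay below that in the other spots of section 1. For Lhfpl3 the levels of the spot groups thus overlapped across sections, although within each section the high spots' level was higher.

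Cacng4 stood at 27.6, 30.3, 20.8 and 33.9 CPM in the spots high in the other 6 members and at 25.6, 27.3, 22.7 and 25.6 CPM elsewhere. It was higher in 3 of 4 sections and lower in section 3, with a log2 fold change of 0.13 ± 0.11 (edgeR, adjusted p = 0.612) and an approximate 95% interval of -0.08 to 0.34. Pcdh15 stood at 6.77, 6.12, 5.58 and 7.48 CPM against 5.83, 5.48, 4.79 and 5.54 CPM, slightly higher in 4 of 4 sections (log2 fold change 0.24 ± 0.21, edgeR, adjusted p = 0.680, interval -0.16 to 0.64). The high spots held 59 UMIs of Pcdh15, and the upper end of its interval was 1.56-fold. For Cacng4, with 254 UMIs there, the upper end was 1.27-fold, below the lower ends for the 5 members called. The differences between members were not tested themselves.

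**Figure D2:**
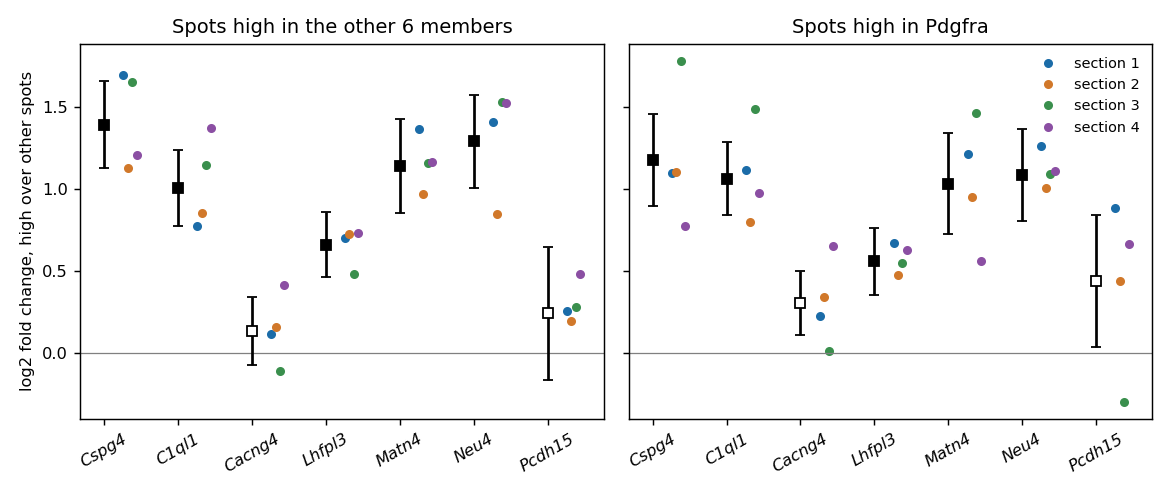
Log2 fold change of each member between spots high in the other 6 members and the other spots (left) and between Pdgfra-high and other spots (right). Squares are edgeR estimates with approximate 95% intervals (filled where the adjusted p was under 0.05) and dots are the 4 sections: Cspg4, C1ql1, Lhfpl3, Matn4 and Neu4 lie above 0 in every section in both panels, while Cacng4 lies at 0.13 and Pcdh15 at 0.24 on the left.

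The 5 calls held with the top 5% or 20% of spots, within clusters of spots with like expression, without spots high in striatal or mature oligodendrocyte markers, and with any 1 section left out. Without the block for section, only Cspg4 and Neu4 kept their calls, with adjusted p-values of 0.0936, 0.579 and 0.176 for C1ql1, Lhfpl3 and Matn4.

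The members were also followed across all spots. When each section's spots were ranked by the score of the other 6 members and cut into 5 equal groups, Neu4 stood at 4.52, 5.46, 6.29 and 5.93 CPM in the lowest group of sections 1 to 4 and at 16.9, 12.9, 16.6 and 21.8 CPM in the highest. The section levels of the lowest and highest groups of Neu4 did not overlap, but the groups between were not always in order: in section 3 the first 3 groups stood at 6.29, 5.07 and 5.83 CPM. Matn4 in section 3 ran 5.91, 7.16, 12.5, 6.08 and 14.3 CPM from the lowest to the highest group. For Lhfpl3 the highest group lay above the lowest within each section, although its lowest group in section 1 (22.2 CPM) was above its highest in section 2 (21.5 CPM). Cacng4 stood at 26.7, 24.2, 22.2 and 22.8 CPM in the lowest group and at 23.5, 29.4, 20.7 and 33.4 CPM in the highest, so that it was lower at the top in sections 1 and 3 and higher in sections 2 and 4. Spot by spot, the correlation of a member with the sum of the other 6, after removing what total UMIs predict, was low for every member, as counts this sparse allow. It averaged 0.16 for Cspg4, 0.15 for C1ql1 and Neu4, 0.11 for Lhfpl3 and 0.10 for Matn4, against 0.03 for Cacng4 and 0.02 for Pcdh15 (Pearson r of residuals over the spots of a section, mean of 4 sections, given as a description). Thinned to 5000 UMIs, these means were lower, at 0.0821 for Cspg4, 0.0691 for C1ql1, 0.0843 for Neu4, 0.0465 for Lhfpl3, 0.0552 for Matn4, 0.00301 for Cacng4 and 0.00055 for Pcdh15. The sections overlapped: before thinning, Matn4 ran from 0.0407 to 0.158 and Cacng4 from -0.0126 to 0.0761, with Cacng4 above Matn4 in section 2. After thinning, Cacng4 in section 2 stood at 0.0434, above C1ql1, Lhfpl3 and Matn4 there. Spots share tissue and depth and are no replicates.

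**Figure D3:**
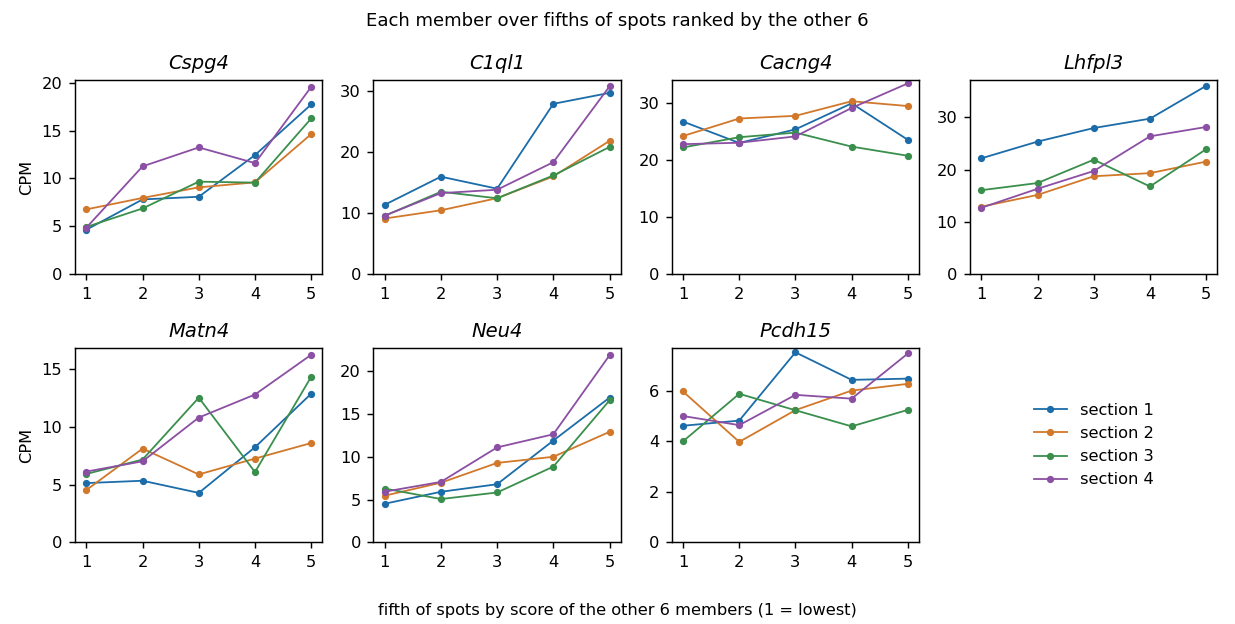
CPM of each member in 5 equal groups of spots, ordered from the lowest (1) to the highest (5) score of the other 6 members, 1 line per section. Neu4 climbs from 4.52 to 6.29 CPM in group 1 to between 12.9 and 21.8 CPM in group 5, whereas Cacng4 moves in opposite directions in different sections.

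Cspg4 and Matn4 were found together in 151 spots. The number of spots with each gene and the spots' depths predicted 106.2, a ratio of 1.42 that was above 1 in 4 of 4 sections. Cspg4 with Neu4 gave a ratio of 1.39, above 1 in 3 of 4 sections, and Cspg4 with C1ql1 gave 1.38, above 1 in 4 of 4. C1ql1 with Neu4 (1.28), Matn4 with Neu4 (1.25), C1ql1 with Matn4 (1.25), Neu4 with Lhfpl3 (1.11) and Cspg4 with Lhfpl3 (1.10) were above 1 in 4 of 4 sections too. C1ql1 with Lhfpl3 (1.15) and Lhfpl3 with Matn4 (1.04) were above 1 in 3 of 4 sections. Pairs with Pcdh15 lay between 0.918 and 1.12, and pairs with Cacng4 between 0.906 and 1.04. Within clusters of spots with like expression, pairs with Cacng4 lay between 0.970 and 1.10, and Cspg4 with Cacng4 was above 1 in 4 of 4 sections. Thinned to 5000 UMIs, pairs with Cacng4 lay between 0.803 (with Matn4) and 1.22 (with Cspg4). Pairs with Pcdh15 then spread from 0.332 (with Matn4, on 2 spots) to 1.66 (with Neu4, on 13 spots). C1ql1 and Cacng4 shared 371 spots where 409.5 were predicted, with ratios of 0.836, 0.950, 0.839 and 0.957 in sections 1 to 4, below 1 in each. Within clusters of spots with like expression this ratio moved to 0.970 and was above 1 in 2 sections, whereas Cspg4 with Matn4 stood at 1.48. With spots thinned to 5000 UMIs, C1ql1 with Cacng4 turned to 1.10 (61 spots where 55.4 were predicted, above 1 in 2 sections), so its direction depended on the setting, and Cspg4 with Matn4 stood at 2.00 on 23 spots. Members in the same spot need not be in the same cell, and no test was made over spots.

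**Figure D4:**
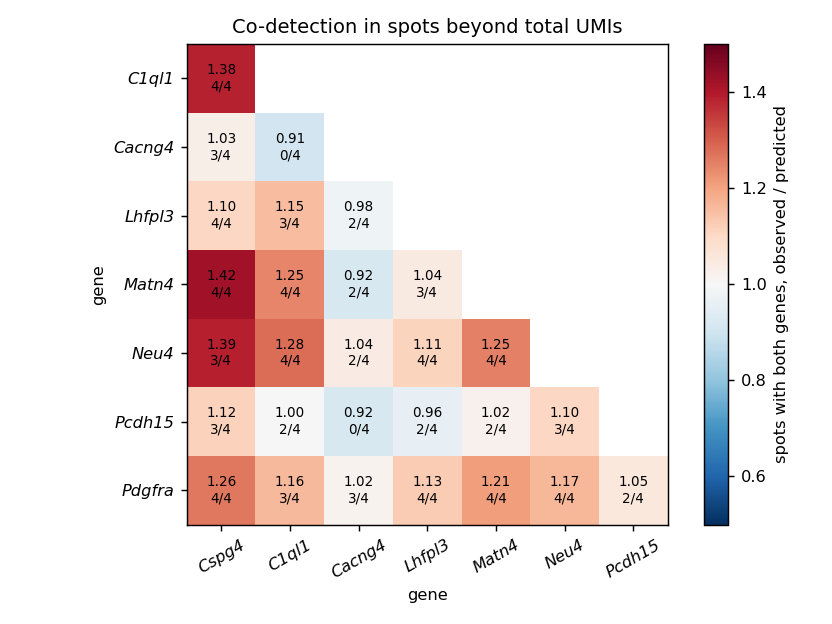
Spots in which both genes of a pair were found, divided by the number predicted from the number of spots with each gene and each spot's depth, over the 4 sections. The lower line of each cell gives the number of sections with a ratio above 1: Cspg4 with Matn4 stands at 1.42 and C1ql1 with Cacng4 at 0.91.

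Cspg4, Neu4, Matn4 and Lhfpl3 have a promoter in the table used here, and their upstream sequences are shown because these genes moved together. OLIG and other basic helix-loop-helix factors bind the E-box, and SOX factors such as Sox10 bind short motifs around ACAA. The sequences are the 250 bases before the start of each gene, from RefSeq on GRCm38.p6, 5′ to 3′ on the gene's strand, with E-box matches (CANNTG, the same on both strands) in capitals. For Cspg4 the window is chr9:56864854-56865103 (plus strand), for Neu4 chr1:94020243-94020492 (plus strand), for Matn4 chr2:164405161-164405410 (minus strand) and for Lhfpl3 chr5:22745804-22746053 (plus strand).
Cspg4: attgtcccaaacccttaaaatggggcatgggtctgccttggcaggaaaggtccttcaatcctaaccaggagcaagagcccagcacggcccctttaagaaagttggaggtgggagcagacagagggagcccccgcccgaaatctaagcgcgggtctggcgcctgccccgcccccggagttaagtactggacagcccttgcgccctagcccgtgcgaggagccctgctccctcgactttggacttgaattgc
Neu4: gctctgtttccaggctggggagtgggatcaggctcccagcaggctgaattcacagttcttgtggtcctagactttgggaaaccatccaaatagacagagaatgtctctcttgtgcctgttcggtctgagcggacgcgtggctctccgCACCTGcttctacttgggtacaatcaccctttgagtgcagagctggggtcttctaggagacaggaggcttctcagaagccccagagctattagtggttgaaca
Matn4: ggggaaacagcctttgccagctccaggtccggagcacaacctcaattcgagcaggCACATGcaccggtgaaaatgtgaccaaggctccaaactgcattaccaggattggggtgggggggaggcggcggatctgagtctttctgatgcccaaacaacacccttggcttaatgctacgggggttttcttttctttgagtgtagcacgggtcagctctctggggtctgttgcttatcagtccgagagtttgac
Lhfpl3: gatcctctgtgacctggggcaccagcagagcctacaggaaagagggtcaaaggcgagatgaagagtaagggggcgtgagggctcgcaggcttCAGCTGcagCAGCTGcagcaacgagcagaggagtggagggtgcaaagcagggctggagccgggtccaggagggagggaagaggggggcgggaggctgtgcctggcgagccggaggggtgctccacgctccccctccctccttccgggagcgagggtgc
Neu4 and Matn4 held 1 E-box each, Lhfpl3 held 2 and Cspg4 held 0, and 66.1% of the 27025 genes with a promoter in the table held at least 1 in a window of this length. The SOX motifs searched, ACAATG and ACAAAG on both strands, were in none of these windows and in 25.4% of all of them. The window listed for Pcdh15 lies inside the gene as located above, at an internal start, and is not described. C1ql1 and Cacng4 had no entry.

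Pdgfra encodes the receptor for platelet-derived growth factor A, whose protein the study stained to see OPCs, and it is no member, so all members could be tested at once in spots high in Pdgfra. These were the 10% of spots per section with the largest excess of Pdgfra UMIs. Of the 7 members, 5 were higher there, the same 5 as before, beside 2.1% of the 14399 genes tested. Cspg4 stood at 19.0, 18.1, 25.3 and 18.4 CPM in sections 1 to 4 against 8.99, 8.51, 7.43 and 10.9 CPM, a log2 fold change of 1.17 ± 0.14 (edgeR, adjusted p = 2.47e-09). C1ql1 stood at 38.0, 22.3, 33.9 and 30.2 CPM against 17.7, 12.9, 12.2 and 15.5 CPM (log2 fold change 1.06 ± 0.11, edgeR, adjusted p = 3.70e-11). For neither gene did the 4 section levels of the Pdgfra-high spots, each from summed UMIs, overlap those of the other spots.

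Neu4 and Matn4 were higher by 1.08 ± 0.14 and 1.03 ± 0.16 on the log2 scale, and Lhfpl3 by 0.56 ± 0.10, each in 4 of 4 sections (edgeR, adjusted p = 3.18e-08, 1.95e-06 and 0.000118). Cacng4 stood at 29.5, 33.8, 22.5 and 39.1 CPM against 25.5, 26.9, 22.5 and 25.1 CPM, a log2 fold change of 0.30 ± 0.10 that missed the threshold (edgeR, adjusted p = 0.0688). It passed without section 3 (0.38, adjusted p = 0.0386) and without the choroid plexus-marker spots (0.32, adjusted p = 0.0461). Pcdh15 was at 9.99, 7.14, 3.82 and 8.38 CPM against 5.54, 5.37, 4.97 and 5.44 CPM, higher in 3 of 4 sections and lower in section 3 (log2 fold change 0.44 ± 0.20, edgeR, adjusted p = 0.290).

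Other cells also carry Pdgfra, among them fibroblasts of the brain's coverings. Of 7 fibroblast markers, 5 were higher in the Pdgfra-high spots, with a median log2 fold change of 1.08 over the list, against -0.00 over all genes. Leaving out spots with 2 or more fibroblast markers kept all 5 member calls, and Cspg4 then stood at a log2 fold change of 1.16. Of 9 markers of mural cells (pericytes and vascular smooth muscle), 4 were higher (median 0.38), of 10 choroid plexus markers 5 were (median 0.66), of 5 ependymal markers 3 were (median 0.64) and of 8 mature oligodendrocyte markers 4 were (median 0.20). The mural list was divided: Acta2, Tagln, Myh11 and Vtn were called (0.41 to 1.13). Kcnj8, Abcc9, Rgs5, Atp13a5 and Higd1b were not (-0.31 to 0.38). Of 7 striatal projection neuron markers 4 were lower (median -0.14), beside 1.65% of all genes tested. Of 5 cortical excitatory markers 2 were lower (median -0.26). The part of these cells in the members' rise was not tested beyond that. Without the block for section no member passed, and DESeq2's filter on mean counts left all 7 without an adjusted p, while 6 of them had an unadjusted p under 0.05.

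In the spots high in all 7 members together, the genes of interest were the other genes of the OPC programme and the relatives and partners of the members. The members' own rise there only restates how the spots were chosen. Of 18 other OPC genes tested, 12 were higher and none lower, with a median log2 fold change of 0.59 against 0.00 over all genes, beside 1.57% of the 14261 genes tested called higher and 1.97% lower, shares that include the 7 members. Pdgfra rose by 1.16 ± 0.08 on the log2 scale (edgeR, adjusted p = 3.96e-09). The transcription factors of the lineage rose with it, Olig2 by 0.99 ± 0.10, Sox10 by 0.88 ± 0.09, Nkx2-2 by 0.85 ± 0.23, Olig1 by 0.82 ± 0.06 and Sox6 by 0.65 ± 0.14. Vcan, which encodes the matrix proteoglycan versican, rose by 0.92 ± 0.14. Ptprz1, a receptor phosphatase of OPCs and astrocytes, rose by 0.39 ± 0.06. Members of the list that did not pass were Sox8, Tnr, Xylt1, Epn2, Rlbp1 and Ppfibp1, at 0.14 to 0.40.

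Few relatives of the members passed the test there. Of 29 paralogs and binding partners, 23 had enough UMIs to be tested, 1 was higher and 1 was lower, and their median log2 fold change was 0.09. The one that rose was Lhfpl5, a relative of Lhfpl3 and, like Pcdh15, a component of the hair-cell mechanotransduction complex, at 0.76 ± 0.18 (edgeR, adjusted p = 0.0197). The one that fell was Cacng3, an AMPA receptor subunit of the same family as Cacng4, at -0.36 ± 0.06 (edgeR, adjusted p = 0.00159). Adgrb3, the receptor for C1ql1, stood at 0.00 ± 0.07, and the AMPA receptor channels Gria1, Gria2, Gria3 and Gria4 stood at 0.09, -0.06, -0.11 and 0.18, none past the test. Cdh23, the tip link partner of Pcdh15, had 51 UMIs in all and was too low to be tested, as were C1ql4, Cacng6, Lhfpl1, Matn1 and Matn3. The rise of Lhfpl5 was not seen in the Pdgfra-high spots, where it stood at 0.02 ± 0.19 (edgeR, adjusted p = 0.980). Cacng3 was lower there too, at -0.20 ± 0.06 (edgeR, adjusted p = 0.0210).

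Markers of other cells moved in these spots too. Cacng4 gave 26.8% of the members' UMIs, which chose these spots. It was itself lower in cortical and higher in striatal marker spots, as described below. Its part in the following differences was not tested. All 5 cortical excitatory neuron markers were lower (median -0.64), 7 of 8 mature oligodendrocyte markers were higher (median 0.34), and of 7 newly formed oligodendrocyte markers 3 were higher, Gpr17 most at 1.35. The 8 interneuron markers were divided: Gad1, Gad2 and Slc32a1, genes of GABA synthesis and loading, were higher (0.20 to 0.31), and Pvalb (-0.44), Vip (-0.53) and Npy (-0.26) were lower. Prkcd was the only one of 5 subcortical excitatory markers called (0.47, higher), and Kl the only one of 10 choroid plexus markers (-0.68, lower; list median -0.51). None of the 7 fibroblast, 9 mural, 6 astrocyte, 6 endothelial or 8 microglial markers passed the test. In the Pdgfra-high spots 2 of 5 cortical excitatory markers were lower (median -0.26) and 4 of 8 mature oligodendrocyte markers higher (median 0.20). Gad1, Gad2 and Slc32a1 stood there at -0.05, 0.06 and -0.04, none of them called. Among all other genes with the same direction in 4 of 4 sections, the 5 largest rises in the member-high spots were of Irx1, A930009A15Rik, Fam89a, 2610028E06Rik and Tafa4. They stood at log2 fold changes of 1.64 to 1.80, each resting on 18 to 47 UMIs in the high spots. The 5 largest falls were of Adcyap1, which encodes the neuropeptide PACAP, and of Cenpa, Gm13306, Medag and Neurod1, at -1.23 to -0.99. The 217 other genes called higher became 330, 112, 103 and 77 without sections 1 to 4 in turn, and the 281 called lower became 414, 170, 94 and 100. The other OPC genes called higher numbered 12, 8, 9 and 10 in the same order, against 12 with all sections.

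Other sources of the members were looked for in spots high in markers of 15 cell types and states, chosen in each section by the same score and share. No list holds a member. Of the 105 pairs of a member and a list, 15 were called higher and 7 lower. Over all genes tested, 1.22% (hippocampal list) to 19.4% (striatal list) were called higher and 1.15% to 19.7% lower in the same 2 lists. The count of pairs was therefore not read as a result about the members. Nothing was called for the choroid plexus, ependyma, endothelium, microglia, hippocampal or interneuron lists. The share of all genes called was high in several of these comparisons and is given with each.

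**Figure D5:**
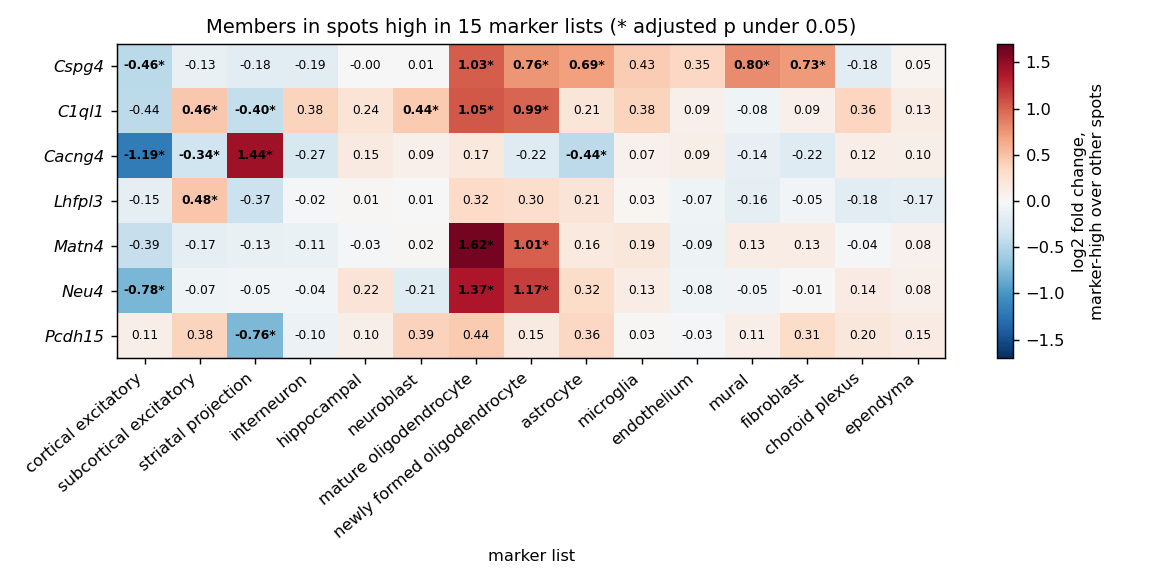
Log2 fold change of each member between spots high in the markers of a cell type and the other spots, for 15 marker lists, with an asterisk where edgeR's adjusted p was under 0.05. Cspg4, C1ql1, Matn4 and Neu4 are higher in both oligodendrocyte columns, Cacng4 is at 1.44 in the striatal column and -1.19 in the cortical one, and Cspg4 alone is called in the mural and fibroblast columns.

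Cacng4 had the largest difference of any member among the neuronal lists. In spots high in markers of striatal projection neurons, the main neurons of the striatum, it stood at 53.2, 51.1, 51.4 and 55.9 CPM in sections 1 to 4 against 21.8, 24.5, 18.0 and 21.3 CPM. These spots held 27.4% of its UMIs and 13.1% of all UMIs (means of 4 sections). Summed over the striatal spots, every section was at more than 50 CPM, and summed over the other spots none passed 25. The log2 fold change was 1.44 ± 0.09 (edgeR, adjusted p = 1.91e-09), in a comparison in which 19.4% of genes were called higher. Where cortical excitatory markers were high, Cacng4 stood at 12.9, 11.1, 10.4 and 17.4 CPM against 28.0, 29.8, 24.8 and 27.9 CPM, again without overlap (log2 fold change -1.19 ± 0.12, edgeR, adjusted p = 2.70e-06, with 15.9% of genes lower). Within clusters of spots with like expression both differences were small and not called (0.18 and -0.13, edgeR, adjusted p = 0.362 and 0.636). The marker lists were not kept out of the genes that made the clusters. Spots were then set against others of like expression, which takes out differences between regions. This setting therefore cannot test a difference between regions, here or for the other lists. Cacng4 was also lower in spots high in subcortical excitatory markers (-0.34 ± 0.11, beside 5.83% of genes lower) and in astrocyte markers (-0.44 ± 0.13, beside 6.15%), calls that were each lost on leaving out any of 3 sections.

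Among 10881 genes with at least 100 UMIs in every section, those with spot-to-spot residuals most like those of Cacng4 included Ppp1r1b and Rasd2, at mean correlations of 0.27 and 0.26 over the 4 sections. Ppp1r1b is in the striatal marker list. For Cspg4 the nearest were Olig1, Pdgfra and Ptprz1 (0.13, 0.13 and 0.10), for C1ql1 Olig1, Pdgfra and Rpl13 (0.14, 0.12 and 0.10), for Matn4 they included Olig1 and Sox10 (0.13 and 0.12), and for Neu4 Gpr17, Olig1 and Cd9 (0.17, 0.15 and 0.11). For Lhfpl3 they were Zcchc12, Dner and Nap1l5 (0.11 each), with Olig1 next at 0.105 against 0.106 for Nap1l5. Over the sections Nap1l5 ran from 0.018 to 0.22 and Olig1 from 0.041 to 0.16. For Pcdh15 no gene passed 0.06. These are descriptions over spots that share tissue, and correlations this low in sparse counts order genes only roughly.

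Leaving the 10% of spots highest in striatal markers out of the held-out comparison left Cacng4 uncalled, at a log2 fold change of 0.23 (edgeR, adjusted p = 0.397). The spots left out need not hold all of the striatum, and the part of striatal neurons in the missing call was not tested. In the striatal spots Pcdh15 was at 3.37, 3.77, 0.668 and 4.60 CPM against 6.29, 5.77, 5.52 and 5.90 CPM (log2 fold change -0.76 ± 0.28, edgeR, adjusted p = 0.0402), and C1ql1 at 8.76, 10.6, 12.7 and 13.5 CPM against 20.9, 14.2, 14.5 and 17.5 CPM (log2 fold change -0.40 ± 0.15, edgeR, adjusted p = 0.0434), with 19.7% of genes called lower. Both were lower in 4 of 4 sections, but the call for Pcdh15 was lost without section 1, 2 or 3 and that for C1ql1 without section 1 or 2 and without the 2 spots rich in C1ql1. Within clusters of spots with like expression neither was called, at -0.11 for Pcdh15 and 0.059 for C1ql1, whose sign thus changed.

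Cspg4, C1ql1, Matn4 and Neu4 were all higher where oligodendrocyte markers were high. In spots high in mature oligodendrocyte markers, the myelin genes of white matter, 12.5% of genes were called higher. Matn4 there stood at 18.5, 16.1, 29.0 and 28.0 CPM against 6.36, 6.32, 7.81 and 9.83 CPM, without overlap between the section levels of the spot groups. The log2 fold change was 1.62 ± 0.20 (edgeR, adjusted p = 2.05e-05). Neu4 stood at 21.5, 16.8, 16.0 and 40.4 CPM against 8.21, 8.43, 8.19 and 10.6 CPM (1.37 ± 0.21, edgeR, adjusted p = 0.000212). C1ql1 and Cspg4 were higher by 1.05 ± 0.18 and 1.03 ± 0.22 (edgeR, adjusted p = 0.000454 and 0.00279), while Lhfpl3 at 0.32, Pcdh15 at 0.44 and Cacng4 at 0.17 did not pass. These spots were shallow, with medians of 3602 to 7777 UMIs against 9389 to 16022 elsewhere. Within clusters of spots with like expression none of the 4 was called, and Cspg4 turned to -0.04.

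Spots high in markers of newly formed oligodendrocytes, the stage that follows the OPC, gave a similar order. Here 7.6% of genes were called higher. Neu4 stood at 19.7, 14.6, 20.9 and 25.7 CPM against 8.15, 8.38, 7.71 and 10.7 CPM, a log2 fold change of 1.17 ± 0.17 (edgeR, adjusted p = 4.63e-07). C1ql1 was at 35.0, 24.2, 28.8 and 32.5 CPM against 18.2, 13.1, 13.3 and 15.9 CPM (0.99 ± 0.13, edgeR, adjusted p = 7.01e-08). For neither gene did the section levels of the spot groups overlap. Matn4 was higher by 1.01 ± 0.19 and Cspg4 by 0.76 ± 0.18 (edgeR, adjusted p = 5.56e-05 and 0.00217), the latter not without section 3 (adjusted p = 0.0812). Within clusters of spots with like expression, Neu4 (0.59, adjusted p = 0.0248) and C1ql1 (0.59, adjusted p = 0.00109) kept their calls, whereas Matn4 (0.58, adjusted p = 0.0514) and Cspg4 (0.33, adjusted p = 0.554) did not.

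Cspg4 was the only member called with markers of vessels and coverings. Where mural cell markers were high it stood at 10.2, 18.2, 15.2 and 20.4 CPM against 9.80, 8.56, 8.49 and 10.7 CPM, beside 6.8% of genes higher. Section 1 showed almost no gap and the other sections a wide one, a log2 fold change of 0.80 ± 0.16 (edgeR, adjusted p = 0.002). Without section 2 the call was lost (0.65, adjusted p = 0.0609), and within clusters of spots with like expression it held (0.50, adjusted p = 0.0362). In spots high in fibroblast markers Cspg4 stood at 14.5, 15.4, 18.2 and 13.3 CPM against 9.38, 8.89, 8.34 and 11.5 CPM (0.73 ± 0.16, edgeR, adjusted p = 0.00363, beside 11.0% of genes higher). With astrocyte markers it stood at 15.9, 13.9, 17.6 and 13.2 CPM against 9.25, 8.96, 8.34 and 11.5 CPM (0.69 ± 0.16, edgeR, adjusted p = 0.00446, beside 9.11%). The fibroblast and astrocyte calls were lost within clusters (adjusted p = 0.266 and 0.215). No other member was called higher with any of these 3 lists.

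The neuronal lists also divided the members. Lhfpl3 stood at 42.4, 24.4, 20.6 and 30.6 CPM in spots high in subcortical excitatory markers, which include thalamic genes, against 26.3, 16.5, 18.3 and 19.2 CPM, beside 5.25% of genes higher. It was higher in 4 of 4 sections, least in section 3, with a log2 fold change of 0.48 ± 0.10 (edgeR, adjusted p = 0.00385) that was not called within clusters of spots with like expression (0.15, adjusted p = 0.675). C1ql1 was higher there too, by 0.46 ± 0.12 (edgeR, adjusted p = 0.0111), a call lost under 6 alternatives, among them leaving out section 2 or 3 (adjusted p = 0.0940 and 0.103) and clusters of spots with like expression (0.11, adjusted p = 0.849). Among cortical excitatory spots, where 15.9% of genes were called lower, Neu4 was at 1.46, 7.10, 6.35 and 9.42 CPM against 10.2, 9.02, 8.95 and 11.9 CPM (-0.78 ± 0.24, edgeR, adjusted p = 0.0218). Without section 1, where Neu4 was lowest in these spots, its call was lost (-0.44, edgeR, adjusted p = 0.0635). Cspg4 stood at -0.46 ± 0.16 there (edgeR, adjusted p = 0.0438), lower in 3 of 4 sections, a call lost without section 1, 2 or 3. In spots high in neuroblast markers, where 4.68% of genes were called higher, C1ql1 was at 35.5, 14.8, 21.1 and 18.6 CPM against 17.7, 13.7, 13.6 and 16.7 CPM (0.44 ± 0.14, edgeR, adjusted p = 0.0461). Section 1, which holds the 2 spots rich in C1ql1, showed the largest gap, and the call was lost without those spots (0.31, adjusted p = 0.138), without section 1 (0.24, adjusted p = 0.440) and without section 3 (0.41, adjusted p = 0.137).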

How the data were processed

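Spatial transcriptomics libraries of 4 Nf1+/- mouse brain sections were analysed. The authors ran Space Ranger (version 1.3.1 per the file headers, mm10 per the submitters' processing notes) and deposited the UMI counts of 32285 genes in each spot as counted, with no normalization. The sections' depths are given with the report, and spots with at least 500 UMIs were used (7620 of 7668).

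A spot's score was the excess of observed over expected UMIs of the genes in question, scaled by the root of the expected UMIs, which total UMIs gave. The top 10% of spots of a section were set against its other spots. UMIs summed per section and spot group (8 sums) were tested with edgeR 4.0.16 in R 4.3.3 (filterByExpr, TMM, a quasi-likelihood test with a block for section, Benjamini-Hochberg adjusted p under 0.05). SE was taken from the F statistic, as the size of the log2 fold change over the root of F, and approximate 95% intervals are 1.96 SE on each side. The pairing follows from the design, 1 section giving both sums, and the paired sums deviated together from their group means (r = 0.37 to 0.53 in the held-out comparisons). With the block, the p-values set the difference between spot groups against how evenly it repeats over sections. That spread may be technical, and differences in level between sections are not part of it.

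On counts simulated for the Pdgfra comparison (14198 genes), 172 of 197 genes changed by 1 on the log2 scale were called, 0 in the wrong direction, and 10 unchanged genes were called. Python 3.11.15 with numpy 2.4.6, scipy 1.17.1, scikit-learn 1.9.0 and matplotlib 3.10.9 was used for the rest, and DESeq2 1.42.0 as an alternative. Clusters of spots with like expression were 10 per section (k-means on 20 components of 1000 genes, without the members, Pdgfra and the other OPC genes). The cell type markers were not kept out of these genes. The members and lists were chosen with earlier results of these data known. Named genes were the members, Pdgfra, the listed genes, the 5 largest rises and falls where the members were high with 1 direction in 4 sections, and the 3 genes most like each member, of which some are not reported here. The spots rich in C1ql1 and the genes high in them were singled out after their values were seen. Alternatives were the share of spots, the normalization, the filter, the block, the tool, the spots used, clusters and each section left out. Equal weights and leaving out striatal, mature oligodendrocyte or C1ql1-rich spots were added after seeing the data. Outlines of regions and spot positions were not used here.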

Additional observations from a re-analysis of the deposited data

Results flagged for a closer look

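Of 57 sets of 4 section values compared, 3 held a section whose gap to the nearest other was wide for the range of the set, and chance alone gives about 1 in 20, or 2.85 of 57. Neu4 stood at 11.6 CPM in section 4, against 8.54 to 8.95 in the other sections. Lhfpl3 had a log2 ratio of 0.48 in section 3 between spots high in the other 6 members and the other spots, below the other sections. Neu4 had a log2 ratio of -2.67 in section 1 in spots high in cortical excitatory markers, and its call there was lost without that section.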

How the results depend on the processing

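Under other settings, 117 values of single members in the held-out comparisons kept their direction and side of the threshold and 3 did not; in Pdgfra-high spots 91 did, 5 lost and 2 gained a call; with the cell type lists 238 did, 68 lost a call and 2 changed sign. Without the replicate block for section, the held-out log2 fold changes of C1ql1 (1.01), Lhfpl3 (0.65) and Matn4 (1.13) missed the threshold, so that 2 of 7 members were called, 0 were called in Pdgfra-high spots, 3 other OPC genes, 4 genes higher and 0 lower were called in member-high spots, and 1 pair of a member and a list was lower. In member-high spots, genes called higher numbered 379 with the top 20% of spots, 86 with DESeq2, 41 within clusters and 77 to 330 with a section left out; genes called lower numbered 187 with the top 5%, 524 with the top 20%, 117 with DESeq2, 603 without the filter, 10 within clusters and 94 to 414 with a section left out. Pairs called higher fell to 3 within clusters; pairs called lower numbered 12 with the top 20%, 2 with DESeq2, 0 within clusters and 1 to 9 with a section left out. Within clusters, C1ql1 in striatal spots turned to 0.059 and Cspg4 in mature oligodendrocyte spots to -0.045. Thinned to 5000 UMIs, the share of spots with a UMI was 5.02% for Cspg4, 7.42% for C1ql1, 11.4% for Cacng4, 9.76% for Lhfpl3, 3.58% for Matn4, 4.55% for Neu4 and 2.60% for Pcdh15. The residual correlation was 0.0821 for Cspg4, 0.0691 for C1ql1, 0.0465 for Lhfpl3, 0.0552 for Matn4, 0.0843 for Neu4, 0.00301 for Cacng4 and 0.00055 for Pcdh15. Thinning lowered the UMIs per spot and also left out the 72, 143, 427 and 207 spots of sections 1 to 4 with fewer than 5000 UMIs. For the residual correlation these 2 changes cannot be told apart. The cause of the other changes was not tested. DESeq2 gave no adjusted p for 7 of 7 members in Pdgfra-high spots. Pcdh15 had the fewest UMIs of the members, and the origin of the sections in mice is not given in the labels.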
